A study of Mus musculus with 6 samples.

Results

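Ttr, the gene of transthyretin, was followed through brain libraries of rat pups whose mothers ate either a high-fat diet (MHFD group) or a normal diet (MND group). It was found by its rat Ensembl identifier, ENSRNOG00000016275, which is 1 of the 32623 genes of the deposited count table. The MHFD group held 3 offspring and the MND group held 3, all taken at postnatal day 21 (D21), the last day of lactation, with 1 library per animal. MHFD dams ate the high-fat feed from before mating through pregnancy and suckling, and MND dams ate normal feed throughout. The methods do not state that the time before mating was equal in both groups. The labels call the animals C57BL/6 mice and the methods call them Sprague-Dawley rats; all identifiers of the table are rat identifiers. The sources used here do not say which litters the animals came from, nor how the brain was dissected, so p-values measure the spread between these animals only.

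Transthyretin binds thyroxine and, together with retinol-binding protein, retinol, and carries them in blood and cerebrospinal fluid. In the brain its messenger RNA is made mainly by the epithelium of the choroid plexus, the folded tissue in the ventricles that secretes cerebrospinal fluid. Neurons and glia make little of it, so its level in a brain extract is widely read as a sign of how much choroid plexus was in the piece. In such bulk samples, fewer cells of a type and less RNA per cell cannot be told apart. None of the 32623 identifiers matched the gene names at hand, which are of the mouse, so other choroid plexus markers, the ependymal, meningeal, glial and neuronal markers, and the genes of thyroid hormone and retinol transport were not analysed here.

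The depth of the libraries lay between 43679373 and 61385917 counts. Library pairs within a group had a correlation of log2 CPM across genes between 0.947 and 0.968. MHFD replicate 3 stood apart by 16 genes that were at least 8-fold higher in it than in each of the others, where no library had more than 4 such genes, and Ttr was among these 16. The group results below are therefore given with and without MHFD replicate 3.

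Ttr was abundant in a single library of the 6. It held 0 counts in MHFD replicate 1, 199 in MHFD replicate 2 and 56499 in MHFD replicate 3. In the MND group it held 23 counts in replicate 1, 49 in replicate 2 and 0 in replicate 3. MHFD replicate 3 thus carried 99.5% of all Ttr counts of the series. The high library belonged to the MHFD group, but so did one of the empty ones, and the groups overlapped. Groups without overlap were found for 13.9% of all tested genes.

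In CPM, counts per 1000000 after scaling the library size by the TMM method, Ttr reached 1291 in MHFD replicate 3. The next library, MHFD replicate 2, had 4.19 CPM, which is 308-fold lower. MND replicate 2 followed with 0.941 CPM, 1372-fold below the highest library, and MND replicate 1 with 0.379 CPM, 3405-fold below it. In MND replicate 3 and MHFD replicate 1 the gene was listed at 0. Against the level that 3 counts would give in each of them, MHFD replicate 3 was at least 22277-fold higher than MND replicate 3 and at least 26341-fold higher than MHFD replicate 1. The order of the levels was therefore MHFD replicate 3, MHFD replicate 2, MND replicate 2, MND replicate 1, and then both libraries at 0.

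**Figure D1:**
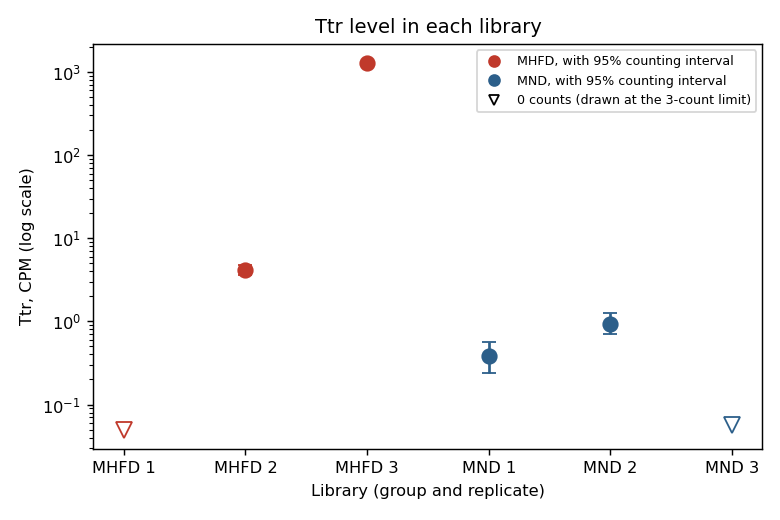
Ttr in CPM on a log axis for each of the 6 libraries, with 95% counting intervals as bars and with open triangles, drawn at the level of 3 counts, for libraries with no count. MHFD replicate 3 stands at 1291 CPM and no other library exceeds 4.19 CPM.

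As a share of the library, Ttr took 0.129% of the counts in MHFD replicate 3, with an exact (Clopper-Pearson) 95% interval from 0.128% to 0.130%. In MHFD replicate 2 its share was 4.23 per 1000000 counts, with an interval from 3.67 to 4.87. On the same scale the shares were 0.945 (0.699 to 1.25) in MND replicate 2 and 0.379 (0.240 to 0.569) in MND replicate 1. For a count of 0 the exact interval reached up to 0.0601 per 1000000 in MHFD replicate 1 and 0.0702 in MND replicate 3. The limit of 3 counts, used for the folds above, is 0.0489 and 0.0571 per 1000000 of these libraries. The intervals of neighbours in this order did not overlap, apart from the libraries at 0. If each count is a molecule, the differences between single libraries thus exceeded counting error. The intervals cover counting error only, and they treat each count as a molecule although counts pile up at 4 and 8 in the table. With several counts per molecule they would be wider, and whether MND replicates 1 and 2 would then still differ was not tested. In each library the number of genes at 4 counts was at least 2.19-fold the mean of those at 3 and 5, and that at 8 counts at least 1.76-fold the mean of those at 7 and 9. The counts of Ttr were not multiples of 4 in any library that held it.

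The place of Ttr among the genes of a library moved just as far. In MHFD replicate 3 only 41 of the 32623 listed genes held more counts. In MHFD replicate 2, 12124 genes held more counts, in MND replicate 2 14471 and in MND replicate 1 15665. These places rest on counts that are not scaled to gene length, so they order the counts and not the number of transcripts. Ttr was the only gene of the table that reached 1000 CPM or more in 1 library and was listed at 0 in another. A count of 0 in at least 1 library was found for 774 of the 16776 tested genes, or 4.61%.

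To compare the diets, the whole table was tested with edgeR's quasi-likelihood test after a filter on low counts, which kept 16776 genes. Ttr passed this filter through 4 libraries of both groups, MHFD replicates 2 and 3 and MND replicates 1 and 2. The MHFD animals had a mean of 431.8 ± 744 CPM (SD, n = 3). The MND animals had a mean of 0.440 ± 0.473 CPM (SD, n = 3). The SD of the MHFD group exceeded its own mean, with a coefficient of variation of 172%, and that of the MND group was 108%. The median of the MHFD group was 4.19 CPM and that of the MND group 0.379 CPM.

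The fitted log2 fold change of Ttr, MHFD against MND, was 9.93 with a standard error of 3.36 and a 95% interval from 1.97 to 17.9. Its unadjusted p from edgeR's quasi-likelihood test was 0.0215 and its adjusted p was 0.542 (Benjamini-Hochberg over the 16776 genes). Ttr thus passed an unadjusted p of 0.05 with at least a 2-fold change, a pair of thresholds that 1.38% of the tested genes passed in the same direction and 2.06% in both directions. It did not pass an adjusted p of 0.05, which 0.00596% of the tested genes, or 1 gene, did. Of the 231 genes higher in the MHFD group past both unadjusted thresholds, Ttr was 1 of the 2 that were listed at 0 in an MHFD library. With this standard error, a log2 fold change under 7.96 would not have passed an unadjusted p of 0.05.

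Without MHFD replicate 3 the log2 fold change of Ttr was 2.24, with a 95% interval from -2.75 to 7.23, an unadjusted p of 0.312 and an adjusted p of 0.947 (edgeR's quasi-likelihood test). The remaining MHFD libraries had 0 and 4.19 CPM, a mean of 2.10 CPM. The lower of them tied with the lowest MND library at 0, and the higher lay above every MND library. The unadjusted call also ended without each MND library. The unadjusted p was 0.0670, 0.0562 and 0.0614 without MND replicates 1, 2 and 3, and the log2 fold change stayed at 9.36 or higher. It kept the call without MHFD replicate 1, with an unadjusted p of 0.00586, and without MHFD replicate 2, with 0.0169. The lowest adjusted p among these 6 fits was 0.138.

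**Figure D2:**
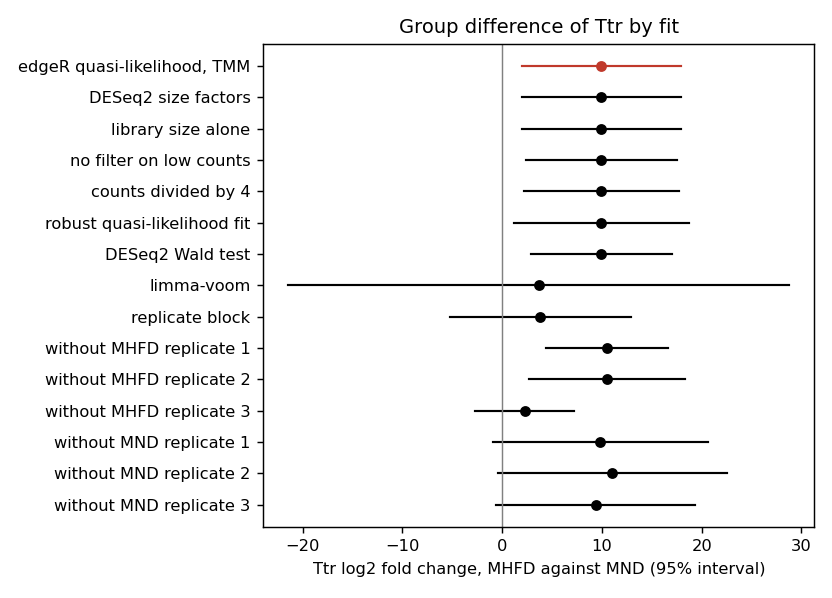
Log2 fold change of Ttr, MHFD against MND, with 95% intervals as lines, in the edgeR quasi-likelihood fit (red) and in fits that changed 1 choice or left out 1 library (black). The value is 9.93 in the first and 2.24 without MHFD replicate 3, where the interval includes 0.

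On the scale of log2 CPM, where a single high value weighs less, the difference between the group means was 4.57. It reached a p of 0.5 in an exact two-sided permutation test over the 20 ways to part the 6 libraries, and 3 animals against 3 cannot go below 0.1. Without MHFD replicate 3 this difference was 0.679, with an exact permutation p of 1. Without MHFD replicate 1 it was 8.19, with an exact permutation p of 0.1, the smallest that 2 animals against 3 allow. limma-voom, which also works on a log scale, gave a log2 fold change of 3.67 with an interval from -21.5 to 28.8 and an adjusted p of 0.933. DESeq2's Wald test gave 9.93 and no p, because its rule on Cook's distance, which marks genes with a count far from the rest of its group, removed it. With that rule turned off, an alternative chosen after the data were seen, the adjusted p was 0.165.

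The spread of Ttr within the groups was set against genes of like level. The SD of log2 CPM within groups, pooled over both, was 5.60 for Ttr. Among the 100 tested genes nearest to it in mean log2 CPM, which lay between 0.228 and 0.331 beside 0.279 for Ttr, the median was 0.505 and the highest 3.09. Ttr exceeded all 100 of them and was 11.1-fold above their median. The size of its SD depends on the prior count, which sets the log2 CPM of libraries at 0. It was 6.53 with a prior count of 0.5 and 4.78 with 8, and exceeded the 100 nearest genes with both. Over all other tested genes the median was 0.230, and 2 genes had a spread as large as that of Ttr. The mean of log2 CPM is low for a gene with 2 libraries at 0, so the comparison was repeated with the 1530 genes within 2-fold of its mean CPM of 216. Their median spread was 0.147, their highest 4.99, and none reached that of Ttr.

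The spread was also taken in each group. In the MHFD group the SD of log2 CPM was 7.54 for Ttr, against a median of 0.467 and a highest value of 3.54 among the 100 genes of like level. In the MND group, which has no library with a high level, it was 2.43 against a median of 0.465, and 2 of the 100 genes had a larger one. Without MHFD replicate 3, the pooled SD of Ttr was 3.44, the median of the 100 genes then nearest to it was 0.881 and the highest 3.12. Ttr still exceeded all 100, but 69 of the other tested genes were then as variable.

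**Figure D3:**
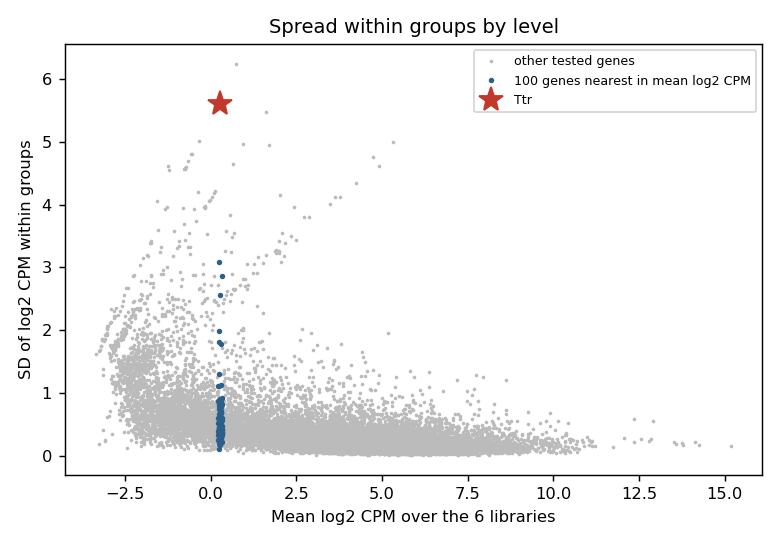
SD of log2 CPM within groups against mean log2 CPM over the 6 libraries for the 16776 tested genes. Ttr (red star) lies at 5.60, above each of the 100 genes nearest in level (blue), whose median is 0.505.

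The level of Ttr in MHFD replicate 3 can also be set against genes with a like level in that library, a comparison chosen after the values were seen. The 100 tested genes nearest in CPM there had from 659 to 2495 CPM in MHFD replicate 3. In their lowest other library these genes kept a median of 93.3% of that level, and the lowest of them 11.8%. None fell under 10% of it in any library and 5 fell under 50%. Ttr, at its highest elsewhere, had 0.325% of its level in MHFD replicate 3.

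The other 15 genes that stood at least 8-fold above every other library in MHFD replicate 3, with at least 100 counts there, were described beside Ttr. They were chosen on that library, so their high value in it is no result. Their values there ran from 102 to 2672 counts, with a median of 1096, all far below the 56499 of Ttr, which made up 76.3% of the counts of the 16 genes. Together the 16 genes took 0.170% of the library. In the libraries that did not choose them, the 15 genes summed to 9.29 CPM in MHFD replicate 2, 7.43 in MND replicate 2, 5.14 in MND replicate 3, 4.58 in MND replicate 1 and 3.04 in MHFD replicate 1. MHFD replicate 2 and MND replicate 2 thus came next in this sum as they did for Ttr, and MHFD replicate 1 came last. Single genes varied: MHFD replicate 2 came next for 6 of the 15, and MND replicates 2 and 3 for 3 each. The order differed for MND replicate 3, which held no Ttr but a larger sum of the 15 genes than MND replicate 1. The gene of the 15 with the highest level in MND replicate 3 had 2.03 CPM there and 0.709 CPM in MND replicate 1. Without it the sums were 3.11 CPM in MND replicate 3 and 3.87 CPM in MND replicate 1. This gene was picked after seeing the data, for its level in MND replicate 3. Leaving it out therefore had to lower that sum more than leaving out any other would. Some of the other genes were also higher in MND replicate 3 than in MND replicate 1, and some were lower.

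Ttr had a smaller share of its highest level outside MHFD replicate 3 than the sum of these genes had. In CPM, the sum of the 15 genes in the other libraries was from 0.758% to 2.32% of its level in MHFD replicate 3, while Ttr was at 0.325% or less. For each 100 counts of the 15 genes there were 322 counts of Ttr in MHFD replicate 3, 45.1 in MHFD replicate 2, 12.7 in MND replicate 2, 8.27 in MND replicate 1 and 0 in both others. The ratio therefore was not the same in the libraries. The gap between the highest library and the next was 308-fold for Ttr and had a median of 42.8-fold for the 15 genes, with the next level set to no less than 3 counts in the shallowest library. Of the 14208 genes with at least 100 counts in their highest library, 1 other gene had a gap as wide, and it was among the 15. With the limit of 3 counts, genes with few counts in their highest library cannot reach such a gap. Both comparisons of the gap are thus partly set by how many counts a gene had. The files do not pair these identifiers with gene names, and whether they belong to the choroid plexus was not tested.

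**Figure D4:**
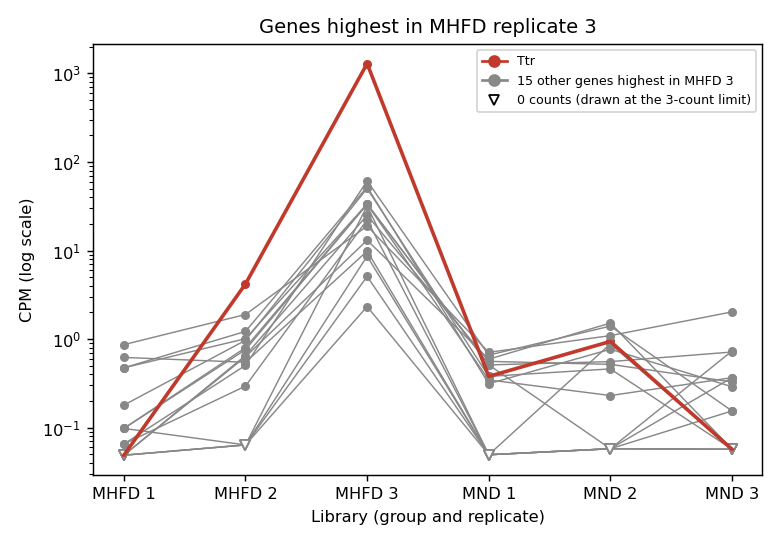
CPM on a log axis by library for Ttr (red) and the 15 other genes at least 8-fold higher in MHFD replicate 3 than in every other library (grey), with open triangles at the level of 3 counts where a gene had none. Ttr stands at 1291 CPM in MHFD replicate 3, above all 15 genes, and is within their range in the MND libraries.

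The genes whose pattern was most like that of Ttr were looked for by the Pearson correlation of log2 CPM over the 6 libraries, which is given as a description. Of the 14497 other tested genes that averaged 1 CPM or more, 239, or 1.65%, had an r of at least 0.9 and 413, or 2.85%, had an r of -0.9 or lower, around a median r of 0.0149. All 239 were highest in MHFD replicate 3 and all 413 were lowest there. Ttr was far highest in that library, so the choice by r largely sets this and it is no separate result. Their changes were small, with a median highest-to-lowest ratio of 1.73 among the 239 and 1.61 among the 413. Without MHFD replicate 3, 61 of the 239 and 142 of the 413 still passed the same limits, though they had been chosen on all 6 libraries.

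Among genes with a highest-to-lowest ratio of at least 1.5, ENSRNOG00000015415 was most like Ttr (r = 0.992, n = 6 libraries). It had 39.0, 48.8 and 61.5 CPM in MHFD replicates 1, 2 and 3 and 45.3, 46.7 and 41.2 CPM in MND replicates 1, 2 and 3. ENSRNOG00000047206 came next with an r of 0.990, and ran from 5.25 CPM in MND replicate 3 to 9.05 CPM in MHFD replicate 3. Chosen by r with Ttr, both were lowest in the libraries where Ttr was at 0 and highest where Ttr was highest.

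The most opposite gene was ENSRNOG00000019339 (r = -0.998, n = 6 libraries). It had 31.5, 24.9 and 18.7 CPM in MHFD replicates 1, 2 and 3 and 27.7, 26.8 and 32.5 CPM in MND replicates 1, 2 and 3. ENSRNOG00000005713 followed with an r of -0.995 and ran from 8.73 CPM in MHFD replicate 3 to 14.8 CPM in MHFD replicate 1. For each step of 1 in the log2 CPM of Ttr, the log2 CPM of these 4 genes moved by 0.0406, 0.0506, -0.0513 and -0.0486 in the order named. Without MHFD replicate 3 their r was 0.971, 0.963, -0.993 and -0.983. The 4 genes were chosen by r over all 6 libraries, so these values are no independent check. None of the 4 passed an adjusted p of 0.05 between the diets, with adjusted p-values from 0.727 to 0.833 (edgeR's quasi-likelihood test).

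**Figure D5:**
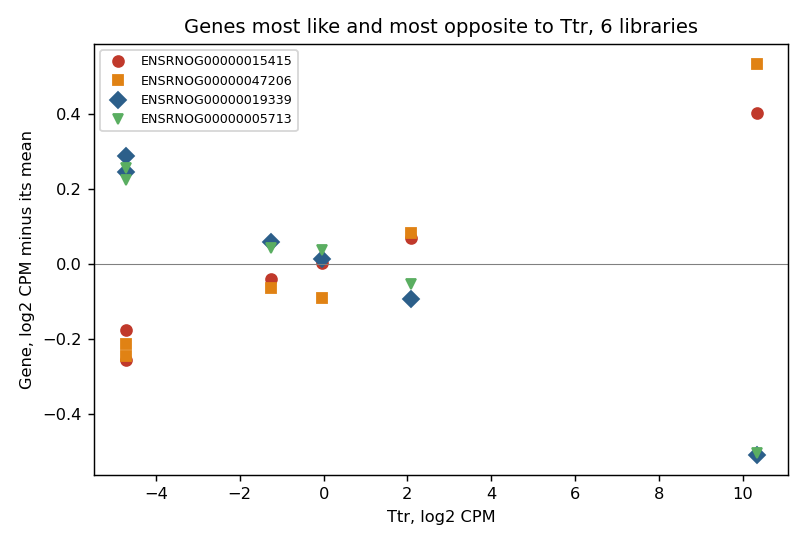
Log2 CPM of the 2 genes most like Ttr and the 2 most opposite, each minus its own mean, against the log2 CPM of Ttr in the 6 libraries. The points of MHFD replicate 3 lie alone at the right, and those of both libraries without Ttr counts at the left.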

How the data were processed

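The authors extracted RNA with Trizol and had it sequenced by a company. They deposited whole counts per gene, without normalization, in a single table with 1 column per library, and all 6 columns were matched to samples by name. The submitters' processing notes name Bowtie and mm10, a mouse build, with no role; the counting program and annotation are not given in the sources used here. The name Ttr for its identifier was taken as given with the gene; no reference at hand pairs them. Because 0 identifiers matched the mouse tables, the planned gene lists were not used.

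Counts were analysed in R 4.3.3 with edgeR 4.0.16: filterByExpr (minimum count 10, minimum total 15), TMM factors and the quasi-likelihood test with diet as the only term. The standard error was taken from F, as the fold change on the log2 scale over its root. Log2 CPM used a prior count of 2. The test was checked on simulated counts with known changes. Their dispersion, the spread beyond counting error, followed the trend over level. That trend was 0.0293 for Ttr, whose own dispersion was 4.48, so the check does not cover a gene as variable as Ttr. DESeq2 1.42.0, limma 3.58.1, other normalizations and filters, the replicate block and the omission of each library were the alternatives. Besides Ttr, the rule named the 2 genes with the highest and the 2 with the lowest r with Ttr, at a mean of at least 1 CPM and a highest-to-lowest ratio of at least 1.5. Gene and lists were chosen with earlier results of these data known. Pairs of libraries within a group differed by a chi-square per gene of at least 30.6, so none was a copy.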

Additional observations from a re-analysis of the deposited data

How the results depend on the processing

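The log2 fold change of Ttr was above 0 in all 17 alternatives that gave a value, from 2.24 to 11.1. DESeq2's Wald test with its rule on Cook's distance gave no p for Ttr, and the adjusted p passed 0.05 in none of the others. The call of Ttr at an unadjusted p of 0.05 and 2-fold was kept in 10 of the 17. In that number the fit without a p counts as not kept. With at least 10 counts in every library Ttr was not tested. The labels tie same-numbered libraries by the number alone. Correlations of their deviations from the group means were -0.0866, 0.00108 and -0.144, and 0 of 3 MHFD libraries correlated best with their own number. Deviations from a mean of 3 libraries depend on each other, so these values cannot decide whether the numbers mark pairs. A shared litter or batch was not tested. With the replicate block the value of Ttr was 3.83, with an unadjusted p of 0.326 and an adjusted p of 0.851. The MHFD mean fell from 431.8 to 2.10 CPM without MHFD replicate 3 and the MND mean from 0.440 to 0.190 CPM without MND replicate 2. At least 99.5% of like genes had a smaller spread in every alternative. The number of genes past an adjusted p of 0.05 was 1 with edgeR, 196 when DESeq2's Wald test was used, and 0 with limma-voom, with at least 10 counts in every library, with counts divided by 4 and with the replicate block, beside 1424, 1482, 1371 and 1078 genes at an unadjusted p under 0.05. Omitting each library in turn gave from 0 to 28. Past an unadjusted p of 0.05 and 2-fold there were 345 genes, and from 275 to 629 with each library left out, the most without MHFD replicate 1. Within groups, 409 genes had an r of at least 0.9 with Ttr. With each library left out, 329 to 550 genes had an r of at least 0.9 and 520 to 863 one of -0.9 or lower, as fewer libraries were used. For the other changes the cause was not tested. With 3 libraries a group and the standard error of that fit, a log2 fold change of Ttr under 7.96 would not have passed an unadjusted p of 0.05. The standard error ran from 2.03 without MHFD replicate 3 to 4.65 without MND replicate 2, so 7.96 is no fixed limit of detection.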
